A study of Mus musculus with 9 samples.

Results

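The comparison of peritoneal fluid from control mice with phosphate-buffered saline (PBS) covered every gene with a level of at least 1 FPKM in 3 or more of the 9 libraries of the series. These were 10537 of the 21959 genes in the deposited table. FPKM counts the sequenced fragments of a gene per kilobase of its length, scaled to the library's total, so levels can be compared between genes. The cells were mesenchymal stromal cells (MSC) of mouse bone marrow, a single line that the labels mark SV40, grown in DMEM/F12 medium with 10% fetal bovine serum in every group. They were kept for 24 h with peritoneal interstitial fluid (PF) of control mice (control PF, 3 libraries) or with PBS in its place (PBS, 3 libraries). The other 3 libraries of the series received fluid of mice given TNBS, a hapten that induces colitis, for 3 days (TNBS PF). The labels give no strain, sex or age of the fluid donors, and nothing states how many animals were pooled or how much fluid was added. They also do not say that the 3 libraries of a group came from separate cultures, so p-values reflect the spread among these samples alone, and that spread may be technical.

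Peritoneal fluid comes from plasma and from the cells that line and patrol the abdominal cavity, and it carries proteins, lipids and cytokines. Stromal cells in culture keep a low tonic type I interferon programme: interferon binds its receptor, transcription factors, Irf9 among them, assemble on the interferon-stimulated response element (ISRE), and antiviral genes of the Ifit, Mx, Oas and GTPase families are transcribed. On stiff plastic the same cells also turn on contractile and matrix genes, driven by TGF-beta, by YAP and by SRF with its MRTF partners, which bind the CArG box.

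The list with the most falls in control PF held type I interferon response genes (15 of 43 tested). Interferon-inducible GTPases with MHC class I genes (9 of 29) and matrix glycoproteins (9 of 30) came next. Postn, a matrix glycoprotein, passed the level filter through PBS alone. By limma 1.14% of all tested genes fell. The promoters of 4 interferon-induced genes that were lower in control PF are shown because they hold the ISRE core, the letters GAAANNGAAA on either strand. The sequences are the 250 bases before the RefSeq start, 5′ to 3′ along the gene, build GRCm38.p6, with each match in capitals. Ifit3 lies at chr19:34583279-34583528 (plus strand), Ifit3b at chr19:34607707-34607956 (plus strand), Ifit1 at chr19:34640639-34640888 (plus strand) and Igtp at chr11:58199306-58199555 (plus strand).
Ifit3: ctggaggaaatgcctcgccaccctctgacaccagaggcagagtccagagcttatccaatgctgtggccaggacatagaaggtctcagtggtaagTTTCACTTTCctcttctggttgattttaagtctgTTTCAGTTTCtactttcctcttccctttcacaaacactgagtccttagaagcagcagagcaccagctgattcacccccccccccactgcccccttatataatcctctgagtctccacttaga
Ifit3b: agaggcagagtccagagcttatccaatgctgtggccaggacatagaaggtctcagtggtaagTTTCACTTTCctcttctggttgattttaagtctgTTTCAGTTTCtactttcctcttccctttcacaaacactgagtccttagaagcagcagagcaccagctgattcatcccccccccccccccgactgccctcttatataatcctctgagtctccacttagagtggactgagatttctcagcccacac
Ifit1: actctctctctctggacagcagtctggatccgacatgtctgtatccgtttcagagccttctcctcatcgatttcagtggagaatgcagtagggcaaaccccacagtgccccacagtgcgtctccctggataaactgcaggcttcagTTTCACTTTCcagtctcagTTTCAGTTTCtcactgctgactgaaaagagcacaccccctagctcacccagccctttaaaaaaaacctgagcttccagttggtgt
Igtp: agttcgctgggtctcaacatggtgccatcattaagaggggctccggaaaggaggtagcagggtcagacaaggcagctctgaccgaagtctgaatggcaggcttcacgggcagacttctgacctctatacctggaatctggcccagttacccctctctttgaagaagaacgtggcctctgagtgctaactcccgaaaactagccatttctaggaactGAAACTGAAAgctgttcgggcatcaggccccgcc
Ifit3 held 2 matches, from base −156 to −147 and from −122 to −113 counted from the start. Ifit1 held 2, from −104 to −95 and from −85 to −76, and in both genes the core reads on the minus strand. Ifit3b held the same pair of matched letters as Ifit3, from −188 to −179 and from −154 to −145. In an end-to-end alignment of the 300-base windows of these neighbouring copies, 258 of 340 columns were identical (75.9%). The windows are offset along the shared sequence, so columns with a base in only 1 window count as not identical. The percentage therefore understates how alike the paired bases are. Igtp held 1 match on the plus strand, from −34 to −25. Among all 32851 RefSeq promoter windows of 300 bases (250 before and 50 after a start), 3.44% held the ISRE core, and the tested genes with an entry stood at 3.75% (317 of 8449). Of the genes lower in control PF, 85 had an entry and 20 of these held the core, 23.5%. Of the genes that were higher, 81 had an entry and 2 held it, 2.47%, namely Spp1 and Vegfa. A match is a description of the letters and not a binding site that was measured.

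Between 18.6 and 21.5 M fragments per library were assigned to genes in control PF, and between 17.9 and 20.3 M in PBS. Correlations of log2 values across genes, which are not independent replicates, ranged from 0.9963 to 0.9973 within control PF or PBS and from 0.9957 to 0.9963 across them. Stromal surface and identity markers were present, 19 of 22 being tested, and their summed level was 1693 to 1757 FPKM in control PF and 1731 to 1759 FPKM in PBS. Ptprc, the pan-leukocyte gene, and Adgre1, a macrophage gene, were at or near 0 in all 6 libraries. Of 9 markers of blood cells in general 8 lay under 1 FPKM in all 9 libraries. The exception, Cd34, was tested and did not pass. The sum of that list was 45.5 to 49.5 FPKM in control PF and 48.2 to 50.8 FPKM in PBS. The 3 tested macrophage and monocyte markers, Gata6 among them, did not pass (median 0.15), but 1 passed as higher without PBS 2. Of the macrophage and monocyte markers 16 of 19 lay under 1 FPKM in all 9 libraries (sum 18.4 to 20.6 FPKM in control PF and 17.0 to 18.6 FPKM in PBS), as did every one of 10 neutrophil, 12 T and NK cell, 11 mast cell and eosinophil, 12 endothelial and 11 intestinal epithelium markers. Short genes differed slightly from long ones. The eighth of tested genes with the shortest transcripts, up to 2054 bases, had a median log2 difference of 0.03, with 29 higher and 18 lower genes, and the eighth with the longest had −0.01. PBS 1 stood apart here, with a median deviation of −0.06 from the mean over libraries for the short genes and 0.05 for the long ones.

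Tests used limma on log2(FPKM + 1) with Benjamini-Hochberg adjustment over all 10537 genes, and differences are given as control PF minus PBS on that scale, which understates the change of genes near 1 FPKM. At an adjusted p under 0.05, 227 genes changed, which is 2.15% of the tested genes. Of these 107 were higher in control PF (1.02%) and 120 lower (1.14%). The 6 values did not overlap between the groups for any of the 227, against 1965 tested genes without overlap in all (18.6%). Separation of the groups in a called gene therefore adds no support to its call. By limma 1643 genes had an unadjusted p under 0.05 (15.6%). The changes were small: the median absolute log2 difference of the 227 was 0.24, 10 reached 0.5 and only 2610528A11Rik exceeded 1. That gene, outside the naming rule because of its clone name and singled out after its values were seen, had 2.50, 1.36 and 1.01 FPKM in control PF and 5.81, 4.16 and 4.58 FPKM in PBS (log2 difference −1.19, SE 0.17, adjusted p = 0.00321 by limma). None of the genes that rose exceeded 1. The number of calls depended on single libraries. Without control PF 1, 2 or 3 there were 115, 130 and 124, without PBS 1 or 3 there were 178 and 142, and without PBS 2 there were 311, of which 194 were higher. With values rescaled to a common sum (TPM) the split was 95 higher and 154 lower. A core of 78 genes, 33 higher and 45 lower, passed in each of the 6 fits without 1 library.

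**Figure D1:**
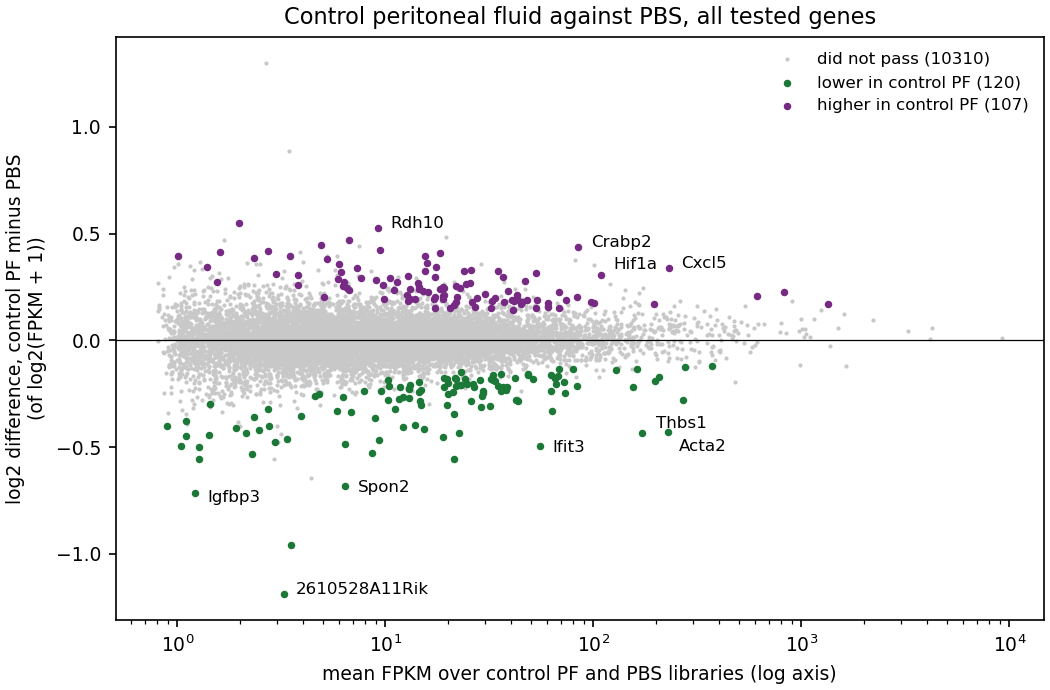
Log2 difference between control PF and PBS (vertical axis, on the log2(FPKM + 1) scale) against mean FPKM over the 6 libraries (horizontal log axis), 1 point per tested gene. The 107 higher and 120 lower genes are coloured and lie close to 0, with few points beyond 0.5 in either direction.

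Type I interferon response genes were lower in control PF. Of 43 tested members, 15 fell, 0 rose and 28 did not pass, where 1.14% of all tested genes fell. Of the 43 differences 40 were below 0. The median was −0.16, while the median over all tested genes was 0.00095. In 31 of the 43 the groups did not overlap, 72.1% of the list against the 18.6% of all tested genes. The count of falls was 6, 9 and 8 without control PF 1, 2 and 3, 10 and 9 without PBS 1 and 3, and 15 without PBS 2, and no fit called a member higher.

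Ifit3 (chr19:34583531-34588731, plus strand) encodes a cytoplasmic antiviral protein that binds viral RNA together with its partners. It had 43.2, 46.0 and 47.6 FPKM in control PF and 66.5, 63.3 and 64.2 FPKM in PBS. Every control PF value lay below every PBS value, and the PBS mean was 1.42 times that of control PF (log2 difference −0.50, SE 0.06, limma adjusted p = 0.00139). Ifit1 (chr19:34640871-34650009, plus strand), which recognises foreign RNA caps, had 56.6, 57.4 and 54.3 FPKM against 69.0, 68.1 and 75.3 FPKM (−0.33, SE 0.05, adjusted p = 0.00538). Its groups were also separate, with the lowest PBS value above the highest control PF value. Ifit3b fell by 0.30 (adjusted p = 0.0461), but as a near copy of Ifit3 it may share reads with it, and its call was lost without any 1 of the 6 libraries (up to 0.153 without control PF 3).

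Mx2, a dynamin-like GTPase that restricts viruses, had 4.97, 5.02 and 5.17 FPKM in control PF and 7.01, 6.04 and 6.87 FPKM in PBS (−0.33, SE 0.06, adjusted p = 0.00874). Ddx58 encodes RIG-I, the cytosolic sensor of viral RNA, and measured 31.7, 34.2 and 32.4 FPKM against 39.6, 37.9 and 38.8 FPKM (−0.24, SE 0.04, adjusted p = 0.00413). For both genes the control PF libraries were all below the PBS libraries. Ifi207, a member of the DNA-sensing p200 family that is not in the fixed list but was among the largest falls, had 5.20, 4.98 and 5.28 FPKM against 7.92, 7.48 and 7.49 FPKM (−0.49, SE 0.05, adjusted p = 0.00043).

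Irf9, a DNA-binding factor of the interferon response, had 13.6, 13.9 and 13.2 FPKM in control PF and 15.6, 16.4 and 16.4 FPKM in PBS. The difference was −0.23 (SE 0.04, adjusted p = 0.00864) and the groups did not overlap. Irf7, which amplifies interferon production, was likewise separate between the groups but just missed the threshold, with 35.2, 38.0 and 35.9 FPKM against 43.0, 39.0 and 40.9 FPKM (−0.17, adjusted p = 0.051). Samd9l, an antiproliferative antiviral gene named after its value was seen, fell by 0.20 (adjusted p = 0.00807). The other called members were Isg15, Isg20, Oasl2, Usp18, Ifih1, Ifi44, Parp9 and Xaf1, with log2 differences from −0.24 to −0.18. These 8 were named to complete the count, and none of them passed without control PF 1. Ifitm3, whose product blocks virus entry and which was named after its value was seen, stood at 0.01 (adjusted p = 0.929).

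Of 11 tested interferon receptor, ligand and signalling genes 1 rose, 0 fell and 10 did not pass, where 1.02% of all tested genes rose. Of the differences 5 were above 0 and 6 below, and the median was −0.00032. The groups did not overlap for 6 of the 11, against 18.6% of all tested genes. Ifnar1, a chain of the type I interferon receptor, had 20.6, 22 and 20.8 FPKM against 19.8, 19.5 and 19.5 FPKM, without overlap but above the threshold (0.10, adjusted p = 0.165). Socs3, which damps cytokine receptor signalling, rose by 0.36, with 17.3, 18.4 and 18.1 FPKM in control PF and 14.4, 11.7 and 15.4 FPKM in PBS (adjusted p = 0.0226). Its call was lost without control PF 1, 2 or 3 (up to 0.0771 without control PF 2).

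Interferon-inducible GTPases and MHC class I genes followed the same direction. Of 29 tested, 9 fell, 0 rose and 20 did not pass, where 1.14% of all tested genes fell. Of the differences 25 were below 0, and the median was −0.12. The number of falls was 2, 5 and 3 without control PF 1, 2 and 3, and 6, 7 and 3 without PBS 1, 2 and 3. Igtp (chr11:58199556-58207591, plus strand), an immunity-related GTPase that attacks pathogen vacuoles, had 22.9, 22.7 and 24.2 FPKM in control PF and 27.9, 28.9 and 28.8 FPKM in PBS. The groups were well apart (−0.28, SE 0.04, adjusted p = 0.00165). Tapbp, the tapasin that loads peptide onto MHC class I and was named after its value was seen, had 61.0, 62.7 and 60.2 FPKM against 69.9, 69.5 and 68.9 FPKM (−0.18, adjusted p = 0.00807). Gbp9, Irgm1, Irgm2, Iigp1 and H2-Q4 fell by 0.18 to 0.27, and each lost its call without control PF 1 and without at least 1 other library. Members of these GTPase and MHC families share sequence, and the sources used here do not give how shared reads were counted. The immunoproteasome gene Psmb8, named after its value was seen, stood at 0.08 (adjusted p = 0.55).

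**Figure D2:**
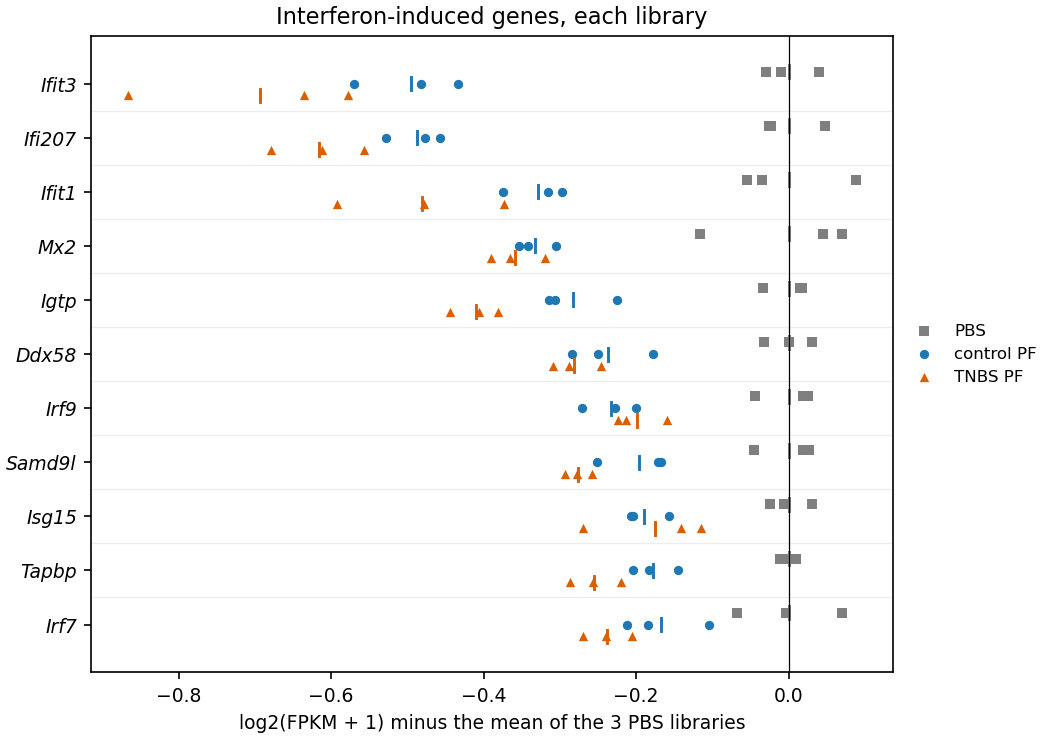
Interferon-induced genes in each of the 9 libraries, as log2(FPKM + 1) minus the mean of the 3 PBS libraries (horizontal axis). Points are libraries and short bars group means. All 3 control PF points lie left of all 3 PBS points for the 11 genes, as for every called gene that fell. Of the 11, Irf7 missed the threshold.

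Among promoters with an entry, the ISRE core was found in members of the type I list that fell (6 of 12) and in those that did not pass (10 of 19). The GTPase and MHC list stood at 14 of 24 (58.3%).

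Matrix genes were also among the falls. Postn, a member of the matrix glycoprotein list, passed the level filter through the PBS libraries alone and is left out of the first counts. Of the other 29 tested matricellular and other matrix glycoproteins 8 fell, 2 rose and 19 did not pass, with a median of −0.09. Of all tested genes 1.14% fell and 1.02% rose. The groups did not overlap for 19 of the 29, against 18.6% of all tested genes. With Postn, 9 of 30 fell, and between 7 and 11 over the fits without 1 library. Thbs1 (chr2:118111876-118127133, plus strand) encodes thrombospondin 1, a secreted activator of latent TGF-beta. Its levels were 144.3, 142.2 and 148.6 FPKM in control PF and 197, 201 and 189.7 FPKM in PBS. No other tested gene except Acta2 had an adjusted p as low (−0.43, SE 0.03, adjusted p = 2.56e-05).

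Spon2, which encodes the secreted matrix protein mindin, had 4.64, 4.89 and 4.46 FPKM in control PF and 7.45, 9.40 and 7.53 FPKM in PBS, a mean 1.74 times higher in PBS (−0.68, SE 0.08, adjusted p = 0.000785). Fbln5, the elastic fibre gene fibulin 5, had 7.73, 7.75 and 7.58 FPKM against 10.1, 11.6 and 11.3 FPKM (−0.47, SE 0.05, adjusted p = 0.000605). Aspn encodes asporin, a small leucine-rich proteoglycan that binds TGF-beta, and stood at 7.45, 6.35 and 6.95 FPKM against 10.2, 9.92 and 11 FPKM (−0.53, SE 0.07, adjusted p = 0.0015). In these 3 genes no control PF library reached the lowest PBS library. Tnc, the wound matrix gene tenascin C, was named after its value was seen and fell by 0.29 (38.0, 38.8 and 40.6 FPKM against 50.2, 46.1 and 47.5 FPKM, adjusted p = 0.00192). Ccn3, a matricellular growth regulator, fell by 0.42 from a low level (2.96 ± 0.171 FPKM in PBS, SD, n = 3). Postn, encoding periostin, had 0.881, 0.766 and 0.870 FPKM against 1.81, 1.44 and 1.87 FPKM (−0.56, adjusted p = 0.00234), and it entered the test through the PBS libraries alone, so it had to differ. Fn1 (fibronectin) and Sparc, both named to complete the count, fell by 0.28 and 0.12. Fn1 lost its call without control PF 1 or 2 or PBS 3 (up to 0.0975 without control PF 1), and Sparc lost it in every such fit but that without PBS 2 (up to 0.158 without PBS 3). The rises were Vcan (0.20) and Thbs3 (0.26). Vcan lost its call without control PF 2, control PF 3, PBS 1 or PBS 3, and Thbs3 in every such fit but that without control PF 2.

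Of 18 tested collagen genes 3 fell, 0 rose and 15 did not pass, with a median of −0.07. Of all tested genes 1.14% fell. Col12a1, which encodes a collagen that decorates fibrils, had 18.4, 18.4 and 20.3 FPKM in control PF and 27.9, 25.8 and 24.6 FPKM in PBS (−0.44, SE 0.05, adjusted p = 0.000785). Col3a1, a fibrillar collagen of elastic tissues, had 39.4, 38.1 and 37.4 FPKM against 48.7, 45.3 and 46.2 FPKM (−0.28, SE 0.03, adjusted p = 0.00139). Both genes were lower in each control PF library than in any PBS library. The most abundant fibrillar gene, Col1a1, overlapped between the groups, with 249, 269.5 and 285 FPKM against 321, 268 and 289 FPKM (−0.12, adjusted p = 0.375). Col6a1 fell by 0.13, a call that held with all libraries and without PBS 2 but in none of the other 5 such fits (up to 0.12 without control PF 1). Among 24 matrix proteases and inhibitors 3 fell, Timp2, Timp3 and Mmp9, and 0 rose, beside the same 1.14% of all tested genes that fell. The call of Timp3 was lost without control PF 1 or 2 and that of Mmp9 also without PBS 3. The most abundant was Timp2, an inhibitor of matrix metalloproteinases, with 141, 144 and 146 FPKM against 168, 169.7 and 165 FPKM (−0.22, SE 0.03, adjusted p = 0.00213). Of 20 collagen processing enzymes P4ha1, a prolyl hydroxylase subunit, was the single call (−0.17, adjusted p = 0.00838).

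Of 33 tested actin cytoskeleton and contractile genes 4 fell, 0 rose and 29 did not pass, with a median of −0.04. Of all tested genes 1.14% fell. Over the fits without 1 library 2 to 5 members fell, and 1 rose without PBS 2. Acta2 (chr19:34241090-34255590, minus strand), encoding smooth muscle alpha-actin, the marker of myofibroblasts, had 199, 194 and 191 FPKM in control PF and 260.1, 261 and 266 FPKM in PBS. The gap between the closest libraries of the groups was far wider than the range within either one (−0.43, SE 0.03, adjusted p = 2.56e-05). Fhl1, a LIM-domain protein of muscle, had 17.5, 18.2 and 17.0 FPKM against 21.7, 21.1 and 23 FPKM (−0.30, SE 0.04, adjusted p = 0.00349), again without overlap. The calls of Actg2, whose coding sequence is close to that of Acta2 and may share reads with it, and of Actn1, an actin cross-linker, were lost without control PF 1, control PF 2 or PBS 3 (up to 0.0975 and 0.0962). Tagln, a classic smooth muscle gene, was under 1 FPKM in all libraries of this line and was named after its value was seen.

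Fhl1 is the fallen contractile gene whose promoter window held a CArG box, from base −102 to −93 on the plus strand (in capitals). The letters searched were CCWWWWWWGG, where W is A or T. The 250 bases before this start, 1 of 2 in the RefSeq table, are at chrX:56779433-56779682, plus strand, GRCm38.p6.
Fhl1: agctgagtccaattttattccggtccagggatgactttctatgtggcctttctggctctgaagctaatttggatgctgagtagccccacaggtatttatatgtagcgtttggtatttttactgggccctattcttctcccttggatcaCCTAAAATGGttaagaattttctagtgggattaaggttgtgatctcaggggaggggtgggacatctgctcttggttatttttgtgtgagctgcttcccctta
A CArG box was found in 1.63% of all promoter windows and in 1.57% of the tested genes with an entry (133 of 8449). Among actin and contractile genes with an entry 7 of 30 held it (23.3%). These were 1 of 3 that fell and 6 of 27 that did not pass (22.2%). The window of Acta2 held no exact match to these letters. Looser forms of the box and bases outside the window were not searched, so a CArG box of Acta2 may have been missed. The 11 tested components of the SRF and MRTF pathway gave 0 calls in either direction by limma and a median of 0.03, but 1 passed as lower without PBS 1. Srf itself had 13.6, 14 and 14.5 FPKM against 13.4, 14.7 and 13 FPKM, overlapping (0.03), and its sign reversed under other settings.

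Genes of the TGF-beta, YAP and BMP pathways gave some falls, where 1.14% of all tested genes fell. Whether these pathways had a part in the falls above was not tested. Of 25 tested TGF-beta ligands, receptors and feedback genes 2 fell and 0 rose, with a median of 0.00179. They were Inhba, the activin A subunit (−0.22, lost without control PF 2, control PF 3 or PBS 3), and Tgfbr2, the ligand-binding receptor (−0.19, lost in every fit without 1 library except that without control PF 2). Tgfb1 (6.02, 6.64 and 7.01 against 7.77, 6.23 and 6.86 FPKM) and the feedback inhibitor Smad7 (4.72, 5.02 and 5.30 against 5.71, 5.31 and 4.52 FPKM) overlapped between the groups. Among 14 YAP targets 2 fell, Ccn2 and F3, and 0 rose. Ccn2, connective tissue growth factor, had 19.0, 17.8 and 19.5 FPKM against 24.1, 22.7 and 25.4 FPKM, with no overlap (−0.34, SE 0.04, adjusted p = 0.00175), while Ccn1, its close relative and named after its value was seen, stood at −0.06 (adjusted p = 0.32). Grem1, a secreted BMP antagonist, fell by 0.26 but lost its call without control PF 1, 2 or 3. Igfbp3, a binding protein for insulin-like growth factors, had 0.725, 0.636 and 0.638 FPKM against 2.13, 1.35 and 1.79 FPKM (−0.72, SE 0.10, adjusted p = 0.00317), and it too entered the test through the PBS libraries alone.

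**Figure D3:**
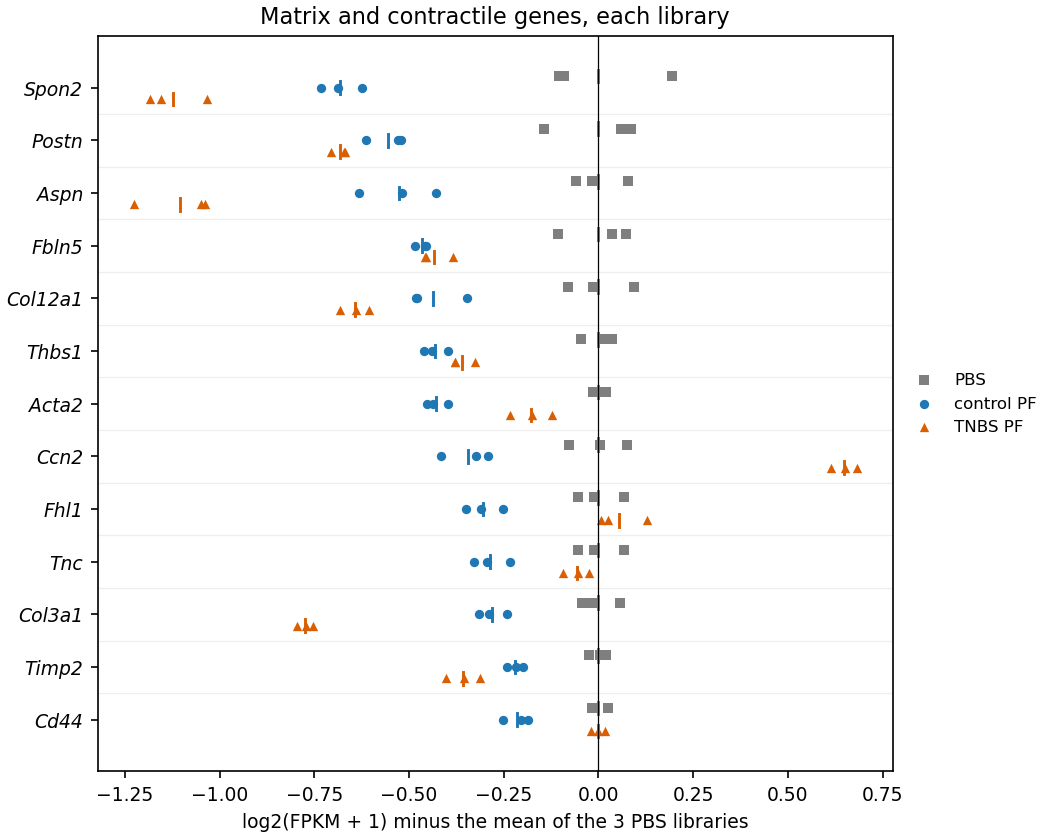
Matrix, contractile and related genes in each library, as log2(FPKM + 1) minus the PBS mean (horizontal axis), with points for libraries and short bars for group means. The 3 control PF points lie left of the 3 PBS points for all 13 genes, as for every called gene that fell. The TNBS PF points lie on either side of 0.

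Retinoid genes had the highest median of the lists with at least 10 tested members. Of 15 tested of 26 members, 2 rose, 0 fell and 13 did not pass, where 1.02% of all tested genes rose. Of the 15 differences 14 were above 0, and the median was 0.11. Without PBS 1 or PBS 2 there were 3 rises, and without control PF 1 there was 1 fall beside 2 rises. Rdh10 (chr1:16105774-16133734, plus strand) encodes the dehydrogenase that oxidises retinol to retinal, the first step towards retinoic acid. It had 11.4, 11.3 and 10.4 FPKM in control PF and 6.70, 7.97 and 7.45 FPKM in PBS, a mean 1.5 times higher (0.53, SE 0.07, adjusted p = 0.00174). Crabp2 (chr3:87948666-87953376, plus strand), which carries retinoic acid to its nuclear receptor, had 92.2, 97.6 and 103 FPKM against 70.2, 70.6 and 74.2 FPKM (0.44, SE 0.04, adjusted p = 0.00043). For both, the lowest control PF library exceeded the highest PBS library, and both passed in all 6 fits without 1 library.

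Among the receptors, Rarg, a retinoic acid receptor gene named after its value was seen, just missed the threshold (0.15, adjusted p = 0.0505), while Rara (4.75, 5.05 and 5.00 against 5.19, 4.84 and 4.71 FPKM) and Rxra (11.1, 11.3 and 10.6 against 11.1, 10.1 and 10.3 FPKM) overlapped between the groups. Dhrs3, which reverses the step of Rdh10 and is itself induced by retinoic acid, had 5.44, 5.55 and 5.51 FPKM against 4.97, 5.41 and 5.21 FPKM (0.07, adjusted p = 0.624). Rarb and Cyp26b1, also inducible by retinoic acid, were under the level filter and were not tested. Rarb had 0.632, 0.449 and 0.644 FPKM in control PF and 0.404, 0.676 and 0.383 FPKM in PBS.

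The other largest rises were single genes of varied function. Npr3, the clearance receptor for natriuretic peptides, had 11.1, 10.7 and 11 FPKM in control PF and 8.77, 7.03 and 7.95 FPKM in PBS (0.42, SE 0.06, adjusted p = 0.00321). Thbd, thrombomodulin, which turns thrombin into an anticoagulant, had 20.7, 21.3 and 20.9 FPKM against 17.3, 14.8 and 14.7 FPKM (0.41, SE 0.05, adjusted p = 0.0015). Both were higher in every control PF library. Of the 13 coagulation and fibrinolysis genes Thbd was the single rise, and F3, the tissue factor that starts coagulation, was the single fall (19.8, 19.7 and 21 against 24.4, 23.2 and 23 FPKM, −0.21, adjusted p = 0.023, lost without control PF 1, control PF 2 or PBS 1). Tubb3, a beta-tubulin, had 18.1, 17.1 and 17.7 FPKM against 14, 13 and 12.6 FPKM (0.39, SE 0.05, adjusted p = 0.00123), and Ackr3, a scavenging receptor for Cxcl12, rose by 0.39 from 2.86 ± 0.138 FPKM (SD, n = 3) in PBS. Camk2n2 had the largest rise of those the naming rule selects, 0.55 from 1.42 FPKM, but lost its call without control PF 1 or 2 (up to 0.0975). Sprr1a, a cornified envelope precursor, Serpinb6b, a protease inhibitor, H1f10, a linker histone, and Ptpn5, a tyrosine phosphatase, rose by 0.47, 0.45, 0.42 and 0.41. Each lost its call in at least 4 of the 6 fits without 1 library, both without control PF 1 and without control PF 3 (up to 0.155, 0.117, 0.113 and 0.105).

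Secreted immune genes were mixed. Of 21 tested cytokines and chemokines 1 rose (3 without PBS 2) and 2 fell (1 to 3 over the fits without 1 library). Of 21 immunomodulators and growth factors 3 rose (1 to 3 over those fits) and 0 fell. Of all tested genes 1.02% rose and 1.14% fell. Cxcl5, a neutrophil-attracting chemokine that these cells express strongly, had 267, 253 and 251 FPKM in control PF and 195, 224 and 191 FPKM in PBS (0.34, SE 0.05, adjusted p = 0.00413). Cx3cl1, fractalkine, the membrane-bound ligand of monocytes, went the other way, with 15.9, 16.2 and 15.5 FPKM against 23.5, 20.7 and 22 FPKM (−0.45, SE 0.04, adjusted p = 0.00043). Neither gene showed overlap. Tnfaip6, which encodes TSG-6, a hyaluronan-binding mediator of the anti-inflammatory action of MSC, had 19.1, 18.6 and 19.9 FPKM against 14.7, 15.3 and 16.3 FPKM (0.30, SE 0.04, adjusted p = 0.00317). Vegfa rose by 0.23 (lost without control PF 1 or PBS 3), Nt5e (CD73) by 0.39 (lost without control PF 1, control PF 2 or PBS 2), and the alarmin Tslp fell by 0.40 (lost without control PF 2 or 3).

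Several secreted factors for which MSC are known gave no call. Ccl2 (315, 316 and 315 against 314, 343 and 326 FPKM), Cxcl12 (65.9, 64.9 and 65.2 against 65.3, 65.4 and 68.0 FPKM) and Nfkbia, the NF-kB inhibitor (62.3, 65.8 and 66.6 against 64.3, 66.4 and 63.4 FPKM), overlapped between the groups. Hgf stood at −0.05 (adjusted p = 0.644) and Ptgs2, the inducible cyclooxygenase, at −0.09 (adjusted p = 0.195). Il6 had 8.37, 8.39 and 7.81 FPKM against 5.42, 6.92 and 7.13 FPKM, without overlap but with a wide PBS spread (0.30, adjusted p = 0.111). Of 18 NF-kB subunits and feedback genes 2 rose and 0 fell, where 1.02% of all tested genes rose. Sod2, the mitochondrial superoxide dismutase, had 13.8, 14.3 and 14.6 FPKM against 11.5, 11.6 and 11 FPKM (0.30, SE 0.05, adjusted p = 0.00871). Nfkbiz rose by 0.15 but lost its call without control PF 1, control PF 2, PBS 1 or PBS 3.

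Iron handling genes rose in 5 of 19 tested members, where 1.02% of all tested genes rose, with 0 falls and a median of 0.06. The count was 4 without control PF 1 and 5 in each other fit without 1 library. Steap1, a metalloreductase of the cell surface, had 57.2, 61.2 and 58.6 FPKM in control PF and 47.7, 47.3 and 46.5 FPKM in PBS (0.32, SE 0.03, adjusted p = 0.00043). Tfrc, the transferrin receptor that imports iron, had 27.4, 26.4 and 26.5 FPKM against 21.7, 22.2 and 22.3 FPKM (0.27, SE 0.03, adjusted p = 0.00149). Cp, ceruloplasmin, a ferroxidase needed for iron export, had 42.4, 39.0 and 40.3 FPKM against 34.7, 32.6 and 31.1 FPKM (0.30, SE 0.04, adjusted p = 0.0031). In all 3 genes the groups were apart. Steap2 rose by 0.20 (adjusted p = 0.00481), and Fbxl5, the iron-sensing ubiquitin ligase subunit, by 0.24 (adjusted p = 0.0131, and 0.0585 without control PF 1). The ferritin gene Fth1, named after its value was seen, stood at 0.07 (adjusted p = 0.392).

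Fatty acid and PPAR genes rose in 5 of 28 tested members, where 1.02% of all tested genes rose, with 0 falls and a median of 0.06. Over the fits without 1 library 2 to 4 rose. Fabp5, an intracellular fatty acid carrier, had 53.7, 49.6 and 50.4 FPKM against 39.3, 44.3 and 42.6 FPKM (0.28, SE 0.04, adjusted p = 0.00572). Angptl4, a secreted lipoprotein lipase inhibitor and target of PPAR, glucocorticoid and hypoxia signals, had 16.0, 16.0 and 15.3 FPKM against 12.6, 13.3 and 13.5 FPKM (0.25, SE 0.04, adjusted p = 0.00831). Control PF exceeded PBS in every library of both genes. The call of Plin2 (0.19) was lost without control PF 1, control PF 2 or PBS 3. That of Acot1 (0.40) was lost in every fit without 1 library except that without PBS 1, and that of Fabp4 (0.27) in all 6. Acot1 had 1.56, 1.14 and 1.16 FPKM in control PF, 0.900, 0.667 and 0.640 FPKM in PBS and 1.02, 0.907 and 0.868 FPKM in TNBS PF. Without the control PF libraries it would not have met the level filter, so it was favoured to differ and its call adds no support. Hif1a, the oxygen-sensitive transcription factor subunit, had 119.3, 119.1 and 121 FPKM against 98.1, 94.2 and 98.2 FPKM (0.30, SE 0.03, adjusted p = 0.00043). The 35 tested hypoxia and glycolysis genes gave 2 rises, Hif1a among them, 1 fall and a median of −0.03.

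**Figure D4:**
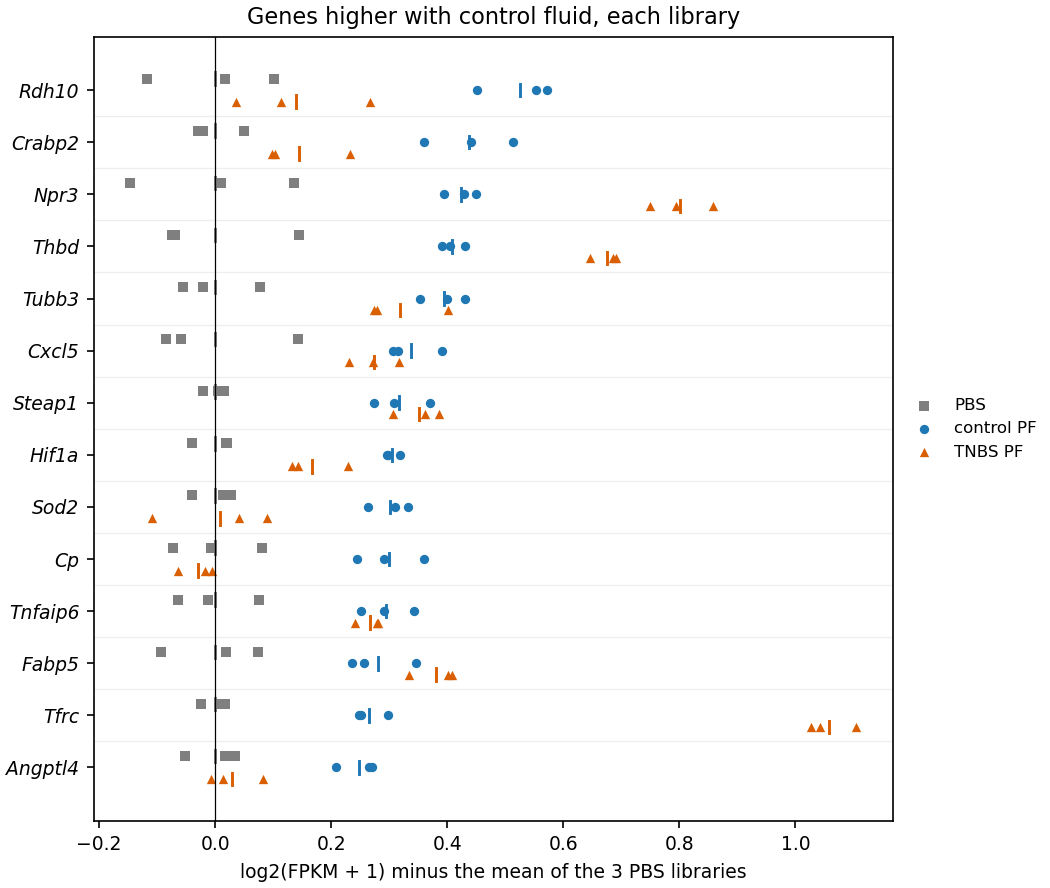
Genes higher with control PF in each library, as log2(FPKM + 1) minus the PBS mean (horizontal axis), with points for libraries and short bars for group means. All 3 control PF points lie right of the PBS points for the 14 genes, as for every called gene that rose. The TNBS PF points of Cp, Sod2 and Angptl4 lie near 0.

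Further falls were single genes. Cd44, the hyaluronan receptor and a stromal surface marker, had 77.5, 78.5 and 75.0 FPKM against 88.9, 91.1 and 88.5 FPKM (−0.21, SE 0.03, adjusted p = 0.00189). Egr1, an immediate early transcription factor, had 26.8, 25.9 and 27.4 FPKM against 32.6, 30.8 and 32.3 FPKM (−0.25, SE 0.04, adjusted p = 0.00413), the single call among 27 immediate early and MAPK feedback genes. Plk2, a p53-inducible kinase, had 68.6, 65.0 and 65.8 FPKM against 77.9, 78.9 and 80.2 FPKM (−0.25, SE 0.03, adjusted p = 0.00189). Each was lower in all control PF libraries. Of 22 tested p53 targets 2 fell and 0 rose, where 1.14% of all tested genes fell. The 2 were Plk2 and Ccng1, the latter passing only without PBS 1 among the 6 fits without 1 library. Of the 22 differences 19 were below 0, and the median was −0.08. Cd74, the invariant chain of MHC class II and a marker of the B cell list (list sum 1.96 to 2.12 FPKM in control PF and 2.76 to 3.11 FPKM in PBS), fell by 0.45 and had entered the test through the PBS libraries alone. Its call was lost without control PF 2 (adjusted p = 0.0519), and 8 of the other 9 measured B cell markers lay under 1 FPKM in all 9 libraries.

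Growth genes gave no call. By limma 0 of 33 mitosis genes and 0 of 38 DNA replication genes passed, with medians of 0.00067 and 0.00813, and Mki67, the proliferation marker, had 61.4, 64.1 and 71.6 FPKM against 66.6, 65.6 and 60.8 FPKM. Of 48 cytosolic ribosomal protein genes 45 differences were above 0 (median 0.08). By limma 0 passed with all libraries and in 5 of the 6 fits without 1 library, but 13 passed as higher without PBS 2. Of 29 ribosome biogenesis genes 24 were below 0 (median −0.07), and 0 passed by limma except 2 lower without PBS 1. Rpl41, a ribosomal protein gene, and Ndufs6 and Atp5e, which encode respiratory chain and ATP synthase subunits, are outside the lists and were named after their values were seen. They rose by 0.23, 0.33 and 0.33, and Atp5e kept its call in all 6 fits without 1 library while the others kept theirs without PBS 2 alone (adjusted p up to 0.111 and 0.152). The ribosomal protein share of all FPKM was 6.44 to 6.49% in control PF and 6.07 to 6.33% in PBS (exact permutation p = 0.1, two-sided, the smallest that 3 against 3 libraries allow). Ribosomal protein genes are short, and the length difference given above, largest in PBS 1, runs in the same direction. Its part in these values was not tested. All 12 tested mitochondrially encoded genes lay above 0 (median 0.10) with 0 calls, and their share of all FPKM overlapped between the groups (7.68 to 8.11% and 7.42 to 7.98%, exact permutation p = 0.9).

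The remaining lists held small numbers of calls, as the plot of all lists shows, where 2.15% of all tested genes were called. Cholesterol synthesis gave 1 rise of 26 (Pmvk), the integrated stress response 1 of 35 (Shmt2, with 3 without PBS 2), glucocorticoid targets 2 of 12 (Errfi1 and Angptl4), respiratory chain genes 1 of 34 (Cox6c), and integrins and laminins 1 of 12 (Itga7). Lysosome genes gave 1 fall of 33 (Lamp2) and NRF2 antioxidant genes 1 fall of 23 (Gstm2). Among the 6 fits without 1 library, Errfi1 and Angptl4 kept their calls in all, while the others lost theirs in at least 2 (adjusted p up to 0.144). Heat shock chaperones gave 0 of 23 by limma (2 rises without PBS 2 and 1 fall without PBS 1), with Hspb1 closest to the threshold (0.27, adjusted p = 0.0506). Of 14 mesothelial markers 4 were tested and 0 passed, but 1 passed as higher without PBS 2. The sum of that list was 46.2 to 47.7 FPKM in control PF and 47.9 to 48.6 FPKM in PBS. In bulk RNA, fewer cells of a type and less RNA per cell cannot be told apart.

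**Figure D5:**
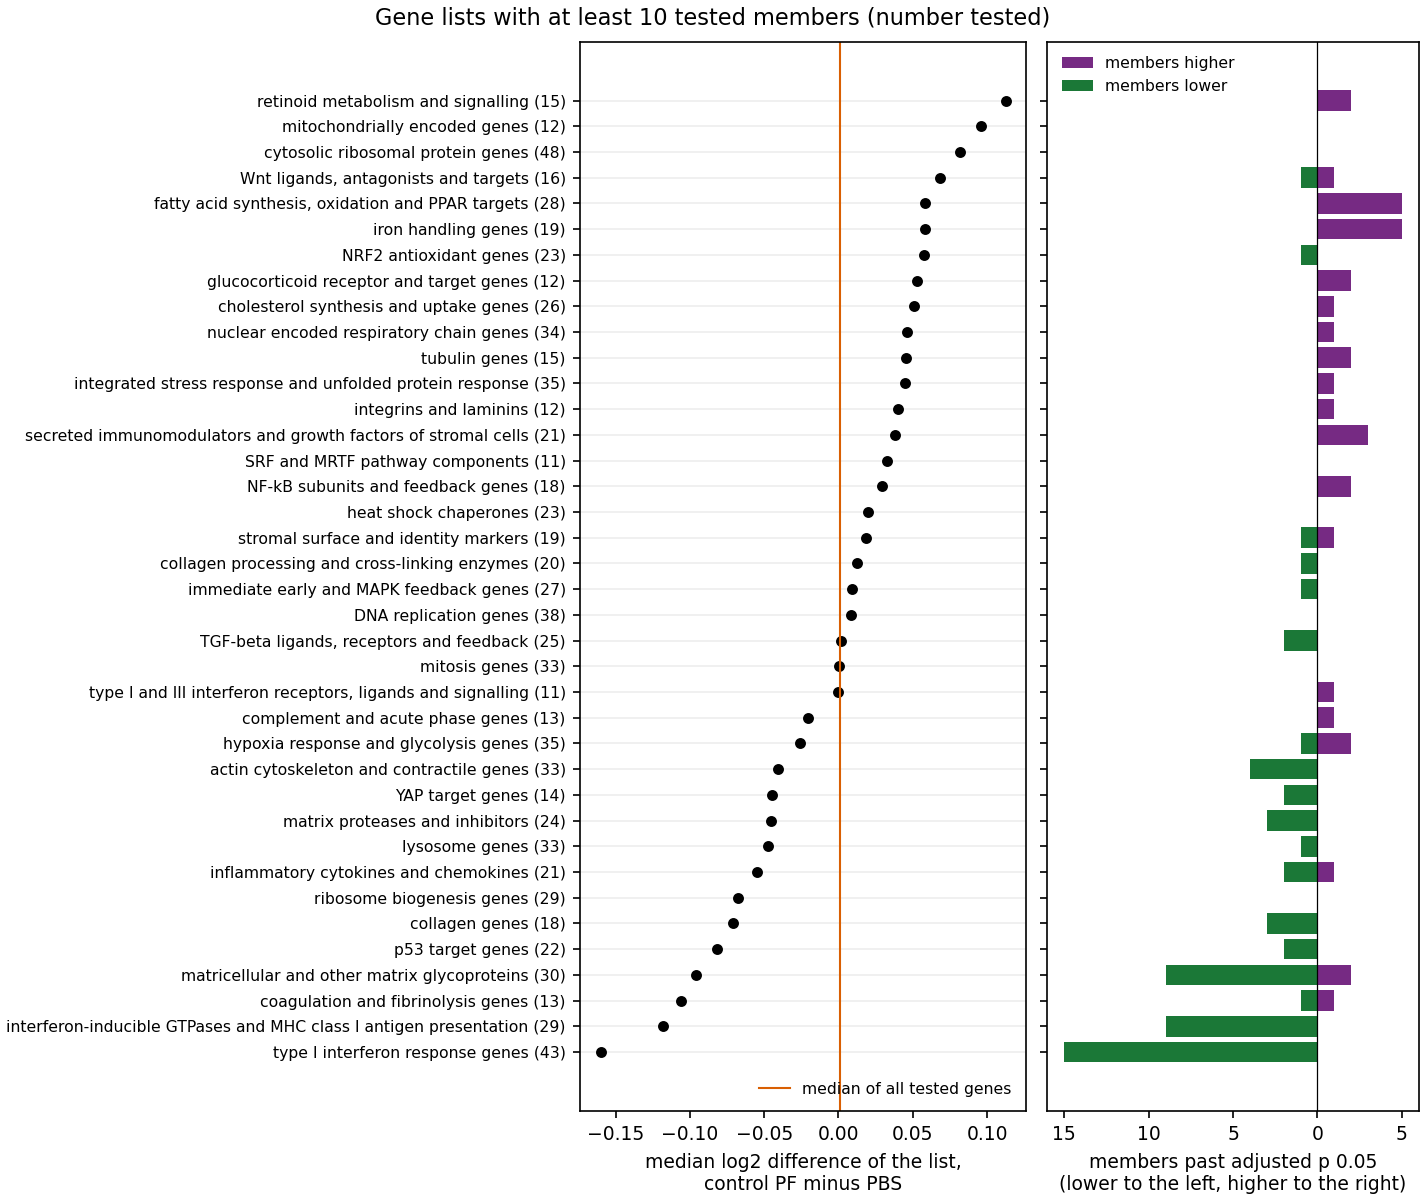
Gene lists with at least 10 tested members (number in brackets). Left, the median log2 difference of each list, with a line at the median of all tested genes. Right, the number of members lower (drawn to the left) and higher (to the right). Type I interferon response genes have the lowest median, −0.16, with 15 lower members, and retinoid genes the highest, 0.11. Matrix glycoproteins are drawn with Postn.

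The fluid of TNBS-treated mice gives a second reading of the named genes. It shares the PBS libraries with this comparison, so values are set side by side. Against PBS 16.7% of tested genes passed in TNBS PF, and 10.6% passed between TNBS PF and control PF. Ifit3 was as low in TNBS PF (43.0, 35.0 and 41.3 FPKM), with a log2 difference from control PF of −0.20 that missed the threshold (limma adjusted p = 0.0565). Thbs1 stood at 156, 149.7 and 150.4 FPKM (0.07, adjusted p = 0.17) and Fbln5 at 7.75, 8.19 and 7.74 FPKM (0.03, adjusted p = 0.735), close to their control PF levels.

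For other genes the fluids differed. Acta2 had 223, 232 and 241 FPKM in TNBS PF, between control PF and PBS (0.25 against control PF, adjusted p = 0.0003). Ccn2, lower than PBS in control PF, had 38.3, 39.2 and 37.3 FPKM in TNBS PF, above both other groups (0.99, adjusted p = 5.64e-08). Fhl1 (22.3, 22 and 24.0 FPKM), Cd44 (89.4, 90.5 and 88.2 FPKM) and Tnc (44.9, 47.1 and 46.1 FPKM) exceeded their control PF levels by 0.36, 0.21 and 0.23 (adjusted p = 0.000295, 0.000456 and 0.00213). Their TNBS PF levels did not pass the test against PBS (adjusted p = 0.444, 0.98 and 0.339).

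Among the risen genes, Rdh10 (9.06, 8.04 and 7.57 FPKM) and Crabp2 (76.8, 77.1 and 84.4 FPKM) were lower in TNBS PF than in control PF by 0.39 and 0.29 (adjusted p = 0.00298 and 0.00115). Cp (31.3, 32.4 and 32.7 FPKM), Sod2 (12.1, 10.5 and 11.7 FPKM), Aldh3b1, an aldehyde dehydrogenase (4.19, 4.39 and 4.86 FPKM), and Angptl4 (13.3, 14 and 13.1 FPKM) were also below control PF, by 0.33, 0.29, 0.36 and 0.22 (adjusted p = 0.000385, 0.00269, 0.00197 and 0.00479). Npr3 (13.9, 15.1 and 14.4 FPKM), Thbd (25.7, 24.9 and 25.6 FPKM) and Tfrc (46.0, 48.6 and 46.5 FPKM) went further up in TNBS PF, by 0.38, 0.27 and 0.79 over control PF (adjusted p = 0.00188, 0.00562 and 4.47e-08). Steap1 (58.5, 61.9 and 60.8 FPKM), Cxcl5 (253, 238 and 246 FPKM) and Tnfaip6 (19.0, 18.4 and 19.0 FPKM) did not pass between the fluids (differences of 0.03, −0.06 and −0.03).

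The authors' deposited table marks 42 genes as changed between control PF and PBS, 12 up and 30 down in that table, the smallest log2 fold change among them being 1.02 in size. Of these, 37 had a mean under 1 FPKM in both groups and were not tested here. The other 5 were Igfbp3, Postn, Gm5617, 2610528A11Rik and mt-Nd4l. The first 4 passed the limma test, but Igfbp3 and Postn had entered it through the PBS libraries alone and so had to differ. The fifth, mt-Nd4l, with 3.73, 3.98 and 6.57 FPKM against 2.83, 1.12 and 2.49 FPKM, missed it (0.89, adjusted p = 0.051).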

How the data were processed

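RNA of 9 libraries was sequenced, 3 each of control PF, TNBS PF and PBS. The submitters' processing notes name cutadapt 1.15, a read trimmer, and the build mm10. Aligner, counting program and use of strand: not given in the sources used here. Per gene and library, the authors deposited FPKM, per the file headers. The authors also deposited a log2 fold change and a p-value per gene for each pair of groups, with no test named in the header, and these were only used where stated. FPKM times GENCODE M21 exon length fell on whole fragments within 0.01 for 97.2 to 97.3% of low values in the 6 libraries, which gave the depths.

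Genes with at least 1 FPKM in 3 or more libraries were fitted as log2(FPKM + 1) over all 9 libraries in limma 3.58.1 (R 4.3.3), using moderated variances with a mean-variance trend, adjusted by Benjamini and Hochberg at 0.05. On simulated data with 200 of 10537 genes changed, the fit recovered 51.9, 94.6 and 99.1% of changes of 0.25, 0.5 and 1 on the log2 scale, and 4.88% of its calls were unchanged genes. Each simulated gene and library was drawn independently with a normal spread, without deviations shared by many genes. The percentages therefore need not hold for the calls in the real libraries. Replicate numbers were not used as pairs: deviations of same-numbered control PF and PBS libraries correlated between −0.0978 and −0.0155.

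The members, the 57 gene lists and the naming rule were chosen with earlier results of these data known. Named are the 14 largest rises and 14 largest falls without overlap and without a predicted or clone name, up to 6 called members of each described list (or its member of smallest p), and preset genes of interferon, TGF-beta, SRF, retinoid and secreted factor signalling. Some results under this rule are not reported here. Promoters came from the RefSeq table of GRCm38.p6. Mx2, Rdh10, Crabp2, Actg2 and Thbs1 have no promoter shown. Besides 17 other settings, 2 more, which removed trends with gene length or with length and GC content, were added after seeing the data.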

Additional observations from a re-analysis of the deposited data

How the results depend on the processing

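Of the 91 named genes that passed, all kept their direction under each alternative that tested them. Of the 74 tested under all 19, 37 passed every one, and of the 17 tested under 18 (all but the filter at 5 FPKM), 5 did. The count of 227 calls (107 higher, 120 lower) was 103 (44 and 59) with no filter on low values, 117 (51 and 66) without the mean-variance trend and 374 (180 and 194) with voom on the recovered fragments, of which 205 were among the 227. The cause was not tested. Leaving out 1 library gave 115 to 311 calls, 47 to 194 higher and 64 to 117 lower. With the replicate block there were 169 (83 and 86), and the numbers pair no libraries by the labels or the deviations. The other settings (pseudocounts of 0.1 and 0.5, a filter at 5 FPKM, TPM, median-ratio and quantile scaling, only the 6 libraries) gave 157 to 258 calls. With the length trend removed there were 258 (107 and 151), 211 of them among the 227, and with length and GC trends removed 270 (114 and 156).

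Among the named genes, signs reversed for 6, none of which had passed. Over the fits without 1 library, Srf ranged from −0.00260 to 0.0824, Tgfb1 from −0.138 to 0.00148, Smad7 from −0.115 to 0.0258, Rara from −0.0201 to 0.0384, Nfkbia from −0.0151 to 0.0329 and Mki67 from −0.0346 to 0.0747. With TPM scaling Rara was −0.00836 and Nfkbia −0.0114. With the length trend removed Nfkbia was −0.0247, and with length and GC trends removed Srf was −0.00725, Rara −0.0191 and Nfkbia −0.0278. The median standard error of a log2 difference was 0.0545.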
